A study of Ovis aries with 40 samples.

Results

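Pulmonary surfactant is the film of phospholipid and protein that lowers surface tension at the air and liquid interface of the alveolus, and alveolar type 2 cells make, store and secrete it. Its hydrophobic proteins SP-B and SP-C insert into the lipid film, while the collectins SP-A and SP-D bind microbial sugars and act in host defence. The lipid is packed in lamellar bodies before secretion, and the whole system has to be in place by birth, when the lung first fills with air. The genes described here were 9 genes of that system, chosen by name from the 24478 genes in the count tables: SFTPA1, SFTPB, SFTPC and SFTPD, which encode SP-A, SP-B, SP-C and SP-D, together with ABCA3, LAMP3, LPCAT1, NAPSA and SLC34A2. All 9 were found under these symbols, and all 9 passed the filter on low counts in every comparison.

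Bulk RNA-seq was available for 40 libraries of proximal and distal lung from wildtype (WT) and CFTR-/- (CF) sheep of the American Romney breed, with 2 libraries for each genotype, region and time point. Time points were days 65, 80, 100 and 120 before birth and term, which was day 147. CF sheep lacked a functional CFTR chloride channel and were cloned by somatic cell nuclear transfer from male fetal fibroblasts targeted in exon 2, whereas WT sheep came from ordinary matings and the WT term lambs had been born naturally, so genotype cannot be told apart from the way the animals were made. The WT day 100 replicates carry 1 animal label, and the label of the second WT day 65 animal recurs on the second CF day 100 animal. Replicate labels share a stem at WT days 80 and 120 and CF days 65 and 80. Whether these are littermates is not stated. Library totals were 24670355 to 43700012 counts in WT before term (n = 16), 85773994 to 103139483 in CF before term (n = 16) and 115937437 to 126749480 in both genotypes at term (n = 8). Before term, genotype therefore cannot be told apart from depth either. From day 120 to term the totals rose more in WT than in CF. CFTR itself was still transcribed in CF lung, at 3.65 to 34.9 CPM (counts scaled to library size and composition, median 16.5, n = 20) against 9.58 to 43.8 CPM in WT (median 25.9, n = 20). With both regions pooled, CF lay below WT without overlap at days 65, 80 and 120 and at term. At day 100 CFTR was at 13 to 23.2 CPM in CF and 21.6 to 31.9 CPM in WT. The CF proximal day 120 replicate 2 library stood apart: its 5 tested airway secretory cell markers summed to 4490 CPM and its 6 basal cell markers to 323 CPM, against 193 and 10.4 CPM in its partner, and the median absolute difference between these replicates over all genes was 1.04 on the log2 scale.

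The genes lie apart in the Oar_v4.0 genome except for the collectins. SFTPA1 (chr25:35170066-35174178, minus strand) and SFTPD (chr25:35060767-35150456, plus strand) are neighbours on chromosome 25, and TMEM254 lies within introns of SFTPD. SFTPB is at chr3:57216253-57228146 (minus), SFTPC at chr2:43230598-43233947 (minus), ABCA3 at chr24:1814983-1917082 (plus) and LAMP3 at chr1:201989482-202022455 (plus). LPCAT1 is at chr16:71490959-71511984 (plus), NAPSA at chr14:55431050-55440129 (minus) and SLC34A2 at chr6:44958089-44984613 (plus). None of the 9 shared exon bases with another annotated gene, and the counts were taken over exons.

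First, the developmental course was examined. The 9 genes together held 0.0642% to 0.105% of the counted reads at day 65 and 1.75% to 2.72% in WT lung at term. In CF lung at term the share ran from 0.659% to 2.86%, and the CF replicate 1 animal exceeded the replicate 2 animal in both regions. In bulk tissue, more alveolar type 2 cells and more RNA per cell cannot be told apart. The plot of shares by library shows that most of the gain came after day 100.

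**Figure D1:**
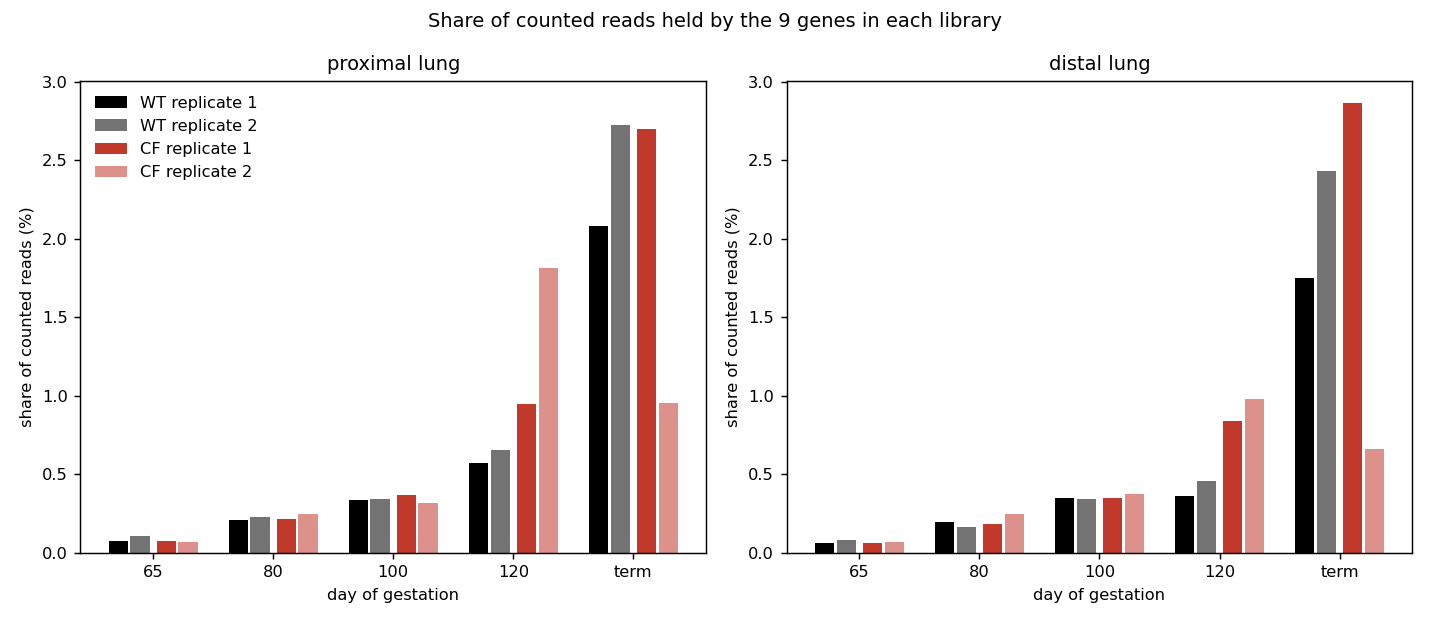
Share of counted reads (%) held by the 9 genes in each of the 40 libraries, 1 bar per library, by day of gestation. In WT lung the bars stayed below 1% until day 120 and reached 1.75% to 2.72% at term, while the CF term replicates differed from each other (2.86% and 0.659% in distal lung).

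Levels between genes were compared as CPM per kilobase of exon. At day 65 SFTPC was already the most abundant of the 9, at 221 CPM per kb in WT distal lung (mean, n = 2), followed by LAMP3 at 40.6, SLC34A2 at 16.6, SFTPB at 13.8 and LPCAT1 at 12.1 CPM per kb. ABCA3, SFTPD, NAPSA and SFTPA1 were each below 1 CPM per kb there. At term the order in WT distal lung was SFTPC (9370 CPM per kb), SFTPA1 (2160), SFTPB (1280), SLC34A2 (480), SFTPD (234), LAMP3 (72.1), NAPSA (47.9), LPCAT1 (39.6) and ABCA3 (9.35). By mean CPM per kb SFTPC ranked 1 among all genes at term in WT proximal, WT distal and CF proximal lung and 2 in CF distal lung, whereas ABCA3 ranked 6231 to 8957.

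The collectins had the steepest courses. SFTPA1 was nearly silent at day 65: the WT proximal libraries held 4 and 16 counts (0.105 and 0.439 CPM), the WT distal libraries 0 and 8 counts (0 and 0.22 CPM), and the 4 CF libraries 0.0923 to 0.498 CPM. By day 100 it stood at 42.4 and 36.5 CPM in WT proximal lung and 21.8 and 25.6 CPM in WT distal lung, and at term at 4870 and 5900 CPM and at 3580 and 4460 CPM. Each time point lay wholly above the one before it in WT proximal lung. The fitted increase from day 65 to term was 14.26 ± 0.46 (SE) on the log2 scale in WT proximal lung (adjusted p = 3.91e-07, edgeR) and 15.14 ± 0.9 in WT distal lung (adjusted p = 1.19e-05), and values of this size rest on few reads at day 65.

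SFTPD, which encodes SP-D, stood above SFTPA1 up to day 100 and below SFTPA1 at day 120 and term in mean CPM per kb, in every course. In WT proximal lung SFTPD went from 0.684 and 2.25 CPM at day 65 through 6.27 and 6.8 CPM at day 80 to 97.6 and 85.1 CPM at day 100. It reached 405 and 637 CPM there at term. In CF distal lung the corresponding values were 2.86 and 3.61, 9.3 and 19.8, 65.3 and 63.7, and 836 and 677 CPM. No library of one of these time points overlapped with those of the next in either course. From day 65 to term SFTPD gained 7.9 ± 0.43 to 9.26 ± 0.56 on the log2 scale and was called in all 4 courses, as was SFTPB.

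The hydrophobic proteins were expressed earlier. SFTPC, the most type 2 cell-restricted of the surfactant proteins, was at 212 and 436 CPM in WT proximal lung at day 65, at 863 and 901 CPM at day 100, and at 10300 and 13200 CPM at term. The day 80 and day 100 libraries overlapped (773 and 976 against 863 and 901 CPM), with a log2 change of 0.00 ± 0.32 between them (adjusted p = 1, edgeR). SFTPB, needed for lamellar body assembly, went from 31.2 and 67.6 CPM at day 65 to 261 and 210 CPM at day 80, 558 and 581 CPM at day 100, 1050 and 859 CPM at day 120, and 3760 and 5130 CPM at term in WT proximal lung. Its WT proximal levels did not overlap between any neighbouring time points.

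ABCA3 and LPCAT1, genes of lamellar body lipid handling, had estimated gains from day 65 to term of 0.76 to 3.31 on the log2 scale over the 4 courses, against 5.17 to 15.14 for the 4 surfactant proteins. ABCA3, the transporter that moves phospholipid into lamellar bodies, stayed between 11 and 21.7 CPM in WT proximal lung from day 65 to day 120 and then stood at 79.5 and 152 CPM at term. LPCAT1, an acyltransferase of surfactant phosphatidylcholine synthesis, was at 30.7 and 22.7 CPM at day 65 and 81.1 and 63.2 CPM at term in the same tissue. In WT distal lung its term values were 104 and 47.8 CPM, 2.17-fold apart, the widest gap of the 9 genes there. LPCAT1 missed the call in all 4 courses (adjusted p 0.00149 to 0.635, edgeR).

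LAMP3, a membrane protein of lamellar bodies, was lower at day 120 than at day 100. It was already at 301 and 349 CPM in WT distal lung at day 65, at 704 and 663 CPM at day 100, at 248 and 324 CPM at day 120, and at 557 and 598 CPM at term. The dip at day 120 was present in both regions and both genotypes, since every day 120 library (248 to 446 CPM, n = 8) lay below every day 100 library (503 to 722 CPM, n = 8). The fall from day 100 to day 120 was −1.26 ± 0.17 on the log2 scale in WT distal lung (adjusted p = 0.0108, edgeR), and it was −0.41, −0.53 and −0.79 in WT proximal, CF proximal and CF distal lung (adjusted p 0.302, 0.778 and 0.212). ABCA3 was also lower at day 120 in WT distal lung, at 12.2 and 17.1 CPM against 23.4 and 25.2 CPM at day 100, without overlap (−0.73 ± 0.35, adjusted p = 0.343).

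NAPSA encodes napsin A, an aspartic protease that processes SP-B and SP-C precursors. It was flat at the start, between 0.447 and 1.04 CPM in the 8 WT libraries of days 65 and 80, and it then climbed to 25.1 and 12.8 CPM at day 120 and to 168 and 308 CPM at term in WT proximal lung. SLC34A2, a sodium and phosphate cotransporter that recovers phosphate from surfactant breakdown, rose earlier: in WT distal lung it was at 54.2 and 82.1 CPM at day 65, 192 and 193 CPM at day 80, 1160 and 1180 CPM at day 100, 851 and 1140 CPM at day 120, and 2190 and 1750 CPM at term. Its day 100 and day 120 libraries did not overlap in WT distal lung, yet they differed by only −0.23 ± 0.22 on the log2 scale (adjusted p = 0.663, edgeR).

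**Figure D2:**
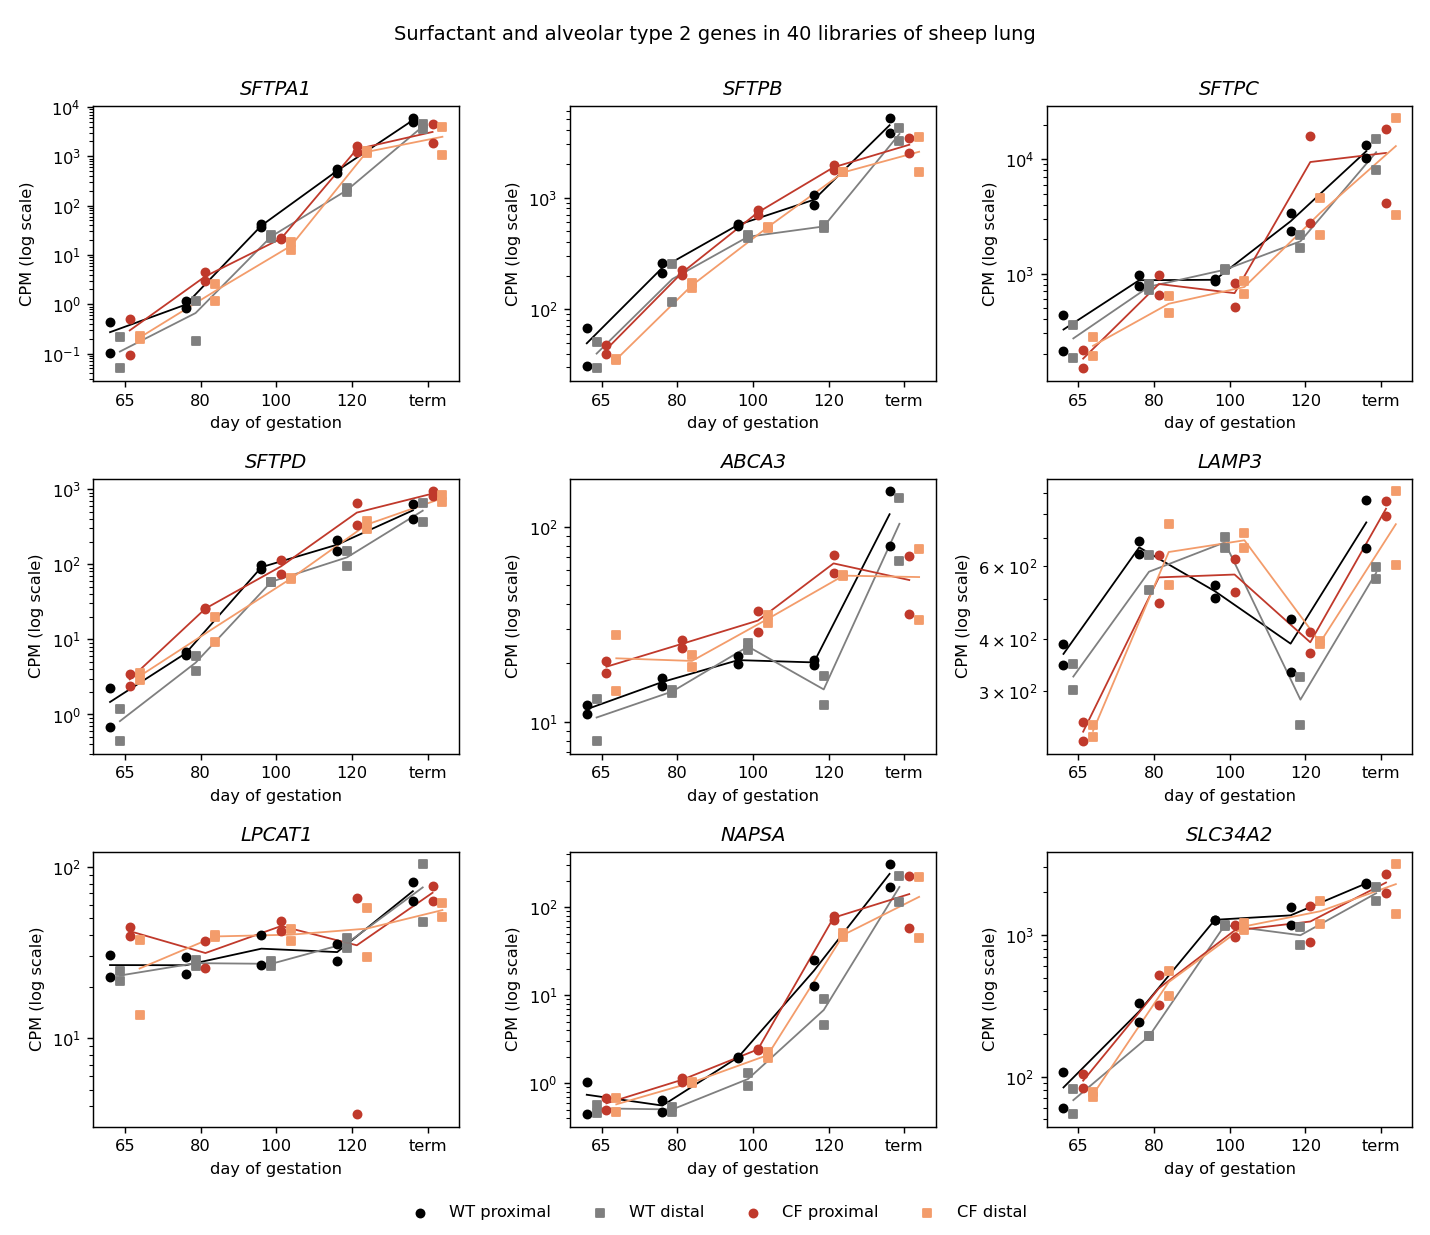
CPM (log scale) of each gene in each library by day of gestation, with lines through the mean of the 2 replicates and a value of 0 drawn at the lower edge (0.05 CPM). SFTPA1, SFTPD and NAPSA started at 3.61 CPM or less and gained most, and LAMP3 dipped at day 120. ABCA3 in WT lung did not exceed 25.2 CPM up to day 120 and stood at 66.8 to 152 CPM at term.

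In each course the genes were tested from day 65 to term with a quasi-likelihood test, and a gene was called at an adjusted p of 0.001 or less with a log2 fold change of at least 0.58. In WT proximal lung 7 of 9 were called as higher at term, where 8.15% of all genes tested were, and in WT distal lung 7 of 9, against 6.43%. The same genes were called in both: SFTPA1, SFTPB, SFTPC, SFTPD, ABCA3, NAPSA and SLC34A2. In CF distal lung 5 of 9 were called (SFTPA1, SFTPB, SFTPD, NAPSA and SLC34A2), against 2.42% of all genes, and in CF proximal lung SFTPB and SFTPD were called, against 0.0356%. The estimates themselves were positive for every gene in every course, from 0.76 ± 0.95 (LPCAT1, CF proximal, adjusted p = 0.635, edgeR) to 15.14, and at a looser adjusted p of 0.05 the counts were 9, 9, 8 and 8 of 9, against 20.6%, 19.5%, 5.78% and 15.9% of all genes.

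Next, neighbouring time points were compared to see when each gene moved. Of the 144 comparisons, 5 were called. SFTPA1 rose from day 100 to day 120 in WT proximal lung (log2 3.71 ± 0.29, adjusted p = 8.8e-04, where 0.055% of all genes were called as higher). From day 120 to term in the same tissue SFTPA1 rose by 3.4 ± 0.28 (adjusted p = 1.52e-04), ABCA3 by 2.52 ± 0.27 (adjusted p = 4.5e-04) and NAPSA by 3.65 ± 0.41 (adjusted p = 5.67e-04), against 1.2% of all genes called. NAPSA also rose in WT distal lung over that interval (4.64 ± 0.41, adjusted p = 4.02e-04, against 0.624% of genes). Leaving out either WT proximal day 120 library reduced the 5 calls to 1, leaving out any 1 of the WT proximal day 80 or day 100 libraries reduced them to 2, and leaving out WT distal term replicate 1 raised them to 8. With the WT day 100 libraries, which carry 1 animal label, summed to 1, the only call left was SFTPA1 from day 120 to term in WT proximal lung (adjusted p = 5.33e-04), and the other 4 had adjusted p of 0.00123 to 0.0175.

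At the looser limit 34 of the 144 passed, 33 of them upwards, and these fell into steps by gene. The WT steps into and out of day 100 rest on libraries with a shared animal label. From day 80 to day 100, SFTPA1, SFTPD and SLC34A2 rose in both WT regions, by 5.29, 3.79 and 2.14 in proximal and 5.25, 3.58 and 2.59 in distal lung (log2; adjusted p 0.00128 to 0.00908), where 1.22% and 0.75% of all genes passed as higher. From day 100 to day 120, SFTPA1 (3.71), SFTPC (1.71) and NAPSA (3.27) rose in WT proximal lung, against 1.31% of all genes, and in WT distal lung SFTPA1 (3.12) and NAPSA (2.59) rose, against 1.32%, while LAMP3 fell, against 1.12% that passed as lower. From day 120 to term, 8 of 9 rose in WT proximal lung and 9 of 9 in WT distal lung, against 11.3% and 11.8% of all genes. In CF distal lung the set that rose from day 100 to day 120 was SFTPA1 (6.35 ± 0.67, adjusted p = 0.00837), SFTPD (2.4 ± 0.33, 0.0194) and NAPSA (4.56 ± 0.64, 0.0194), against 0.528% of genes, and from day 120 to term SFTPD and LAMP3 rose, against 11.5%. No step passed in CF proximal lung, where 0.0152% of all genes passed as higher from day 100 to day 120.

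The largest estimated rise also differed in its place. It lay between day 120 and term for 5 genes in WT proximal and 6 in WT distal lung (SFTPC, ABCA3, LAMP3, LPCAT1 and NAPSA in both), although for LAMP3 in WT distal lung the fall from day 100 to day 120 was larger in size. It lay between day 80 and day 100 for SFTPA1, SFTPD and SLC34A2 in both WT regions. In CF lung it lay between day 100 and day 120 for SFTPA1, SFTPC, ABCA3 and NAPSA in both regions and for SFTPD in distal lung. Only LPCAT1 in proximal lung had it between day 120 and term in CF. The rise was largest between day 65 and day 80 for SFTPB, LAMP3 and SLC34A2 in both CF regions. The same interval held it for SFTPD in CF proximal, LPCAT1 in CF distal and SFTPB in WT proximal lung. These placements are estimates, and the change itself is compared between genotypes below. The colour map of the 4 intervals gives every estimate.

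**Figure D3:**
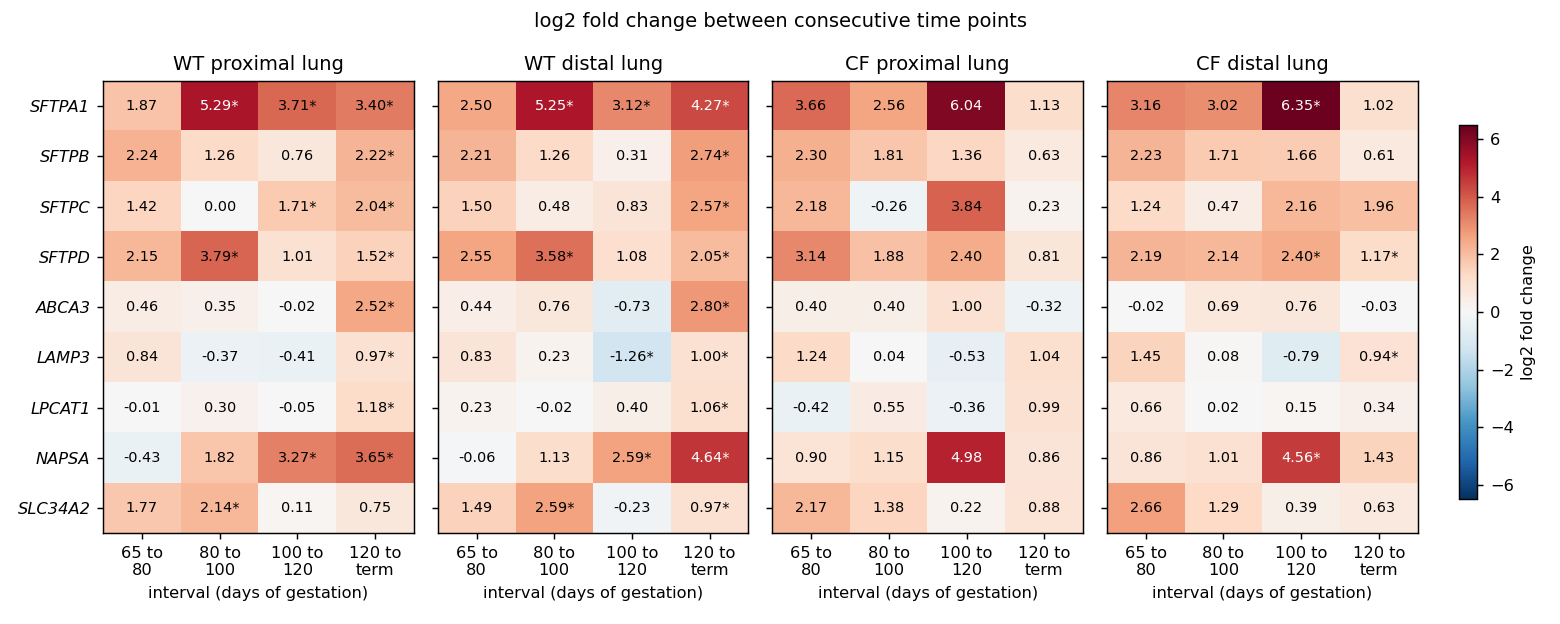
Fitted log2 fold change of each gene (rows) over the 4 intervals (columns, in days of gestation) in each of the 4 courses, with an asterisk where the adjusted p was 0.05 or less and the log2 change at least 0.58 in size. The strongest cells in WT lung sit at days 80 to 100 (SFTPA1 5.29, proximal) and day 120 to term (NAPSA 4.64, distal). In CF lung they sit at days 100 to 120 (SFTPA1 6.35 in distal and 6.04 in proximal lung, NAPSA 4.56 and 4.98).

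Other genes of the same biology were counted as lists for comparison. In WT distal lung from day 65 to term, 6.43% of all genes were called as higher and 5.25% as lower. In that comparison 6 of 19 tested other type 2 genes were called as higher and none as lower, among them CSF3R, a granulocyte growth factor receptor (log2 6.31 ± 0.64, adjusted p = 1.36e-04), CLDN18, an alveolar tight junction protein (4.45 ± 0.2, 2.89e-06), CTSH, a cathepsin that cleaves SP-B and SP-C precursors (4.27 ± 0.29, 1.84e-05), and MUC1, an epithelial surface mucin (3.27 ± 0.45, 6.18e-04). The median of that list was 1.05, against 0.00 over all genes. Of 19 tested regulators of surfactant genes, 2 were called as higher (STAT3, 1.54 ± 0.22, and KLF5, 1.44 ± 0.22) and 2 as lower (the distal tip factors SOX9, −3.17 ± 0.34, and ETV5, −2.16 ± 0.15), with a median of 0.32, and 2 of 19 is near the share over all genes in either direction. Of 15 lipid synthesis genes, CHPT1 and CHKA of the choline pathway (1.6 ± 0.11 and 1.5 ± 0.14) and ACACA of fatty acid synthesis (1.35 ± 0.17) were called as higher and none as lower. Of 8 genes of surfactant protein handling and clearance, CTSH, EMC3 (1.19 ± 0.11) and SPI1, a myeloid transcription factor (3.9 ± 0.48), were called as higher.

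Markers of other cells moved over the same interval. In WT distal lung 7 of 10 alveolar type 1 markers and 7 of 11 general epithelial markers were called as higher, against 6.43% of all genes, and 1 general epithelial marker was called as lower, against 5.25%, with list medians of 3.88 and 1.45. The 7 lung macrophage markers summed to 48 to 62.6 CPM at day 65 and 319 to 789 CPM at term in WT distal lung, and to 75.8 to 78.5 and 65.3 to 74.4 CPM in CF distal lung. The 8 cell cycle genes fell from a sum of 961 to 1040 CPM to 131 to 299 CPM in WT distal lung. Their part in the surfactant gene changes was not tested.

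The comparison of genotypes asked at which stage surfactant gene expression differed between CF and WT lung. The libraries of the 2 genotypes were first compared for overlap. In distal lung, 2, 6, 5, 8 and 2 of the 9 genes had both CF libraries above both WT libraries at days 65, 80, 100, 120 and term, where 27.9%, 34.1%, 36.7%, 23.5% and 22.8% of all genes did. Both lay below for 1, 1, 2, 0 and 0 of the 9, where 21.1%, 29.7%, 31.9%, 19.5% and 25.4% did. In proximal lung the counts were 3, 4, 4, 5 and 1 above, against 33.7%, 26.2%, 24.3%, 19.4% and 24.3% of all genes. They were 1, 1, 3, 0 and 3 below, against 25.5%, 21.2%, 20.9%, 16.7% and 29.4%. At day 120 every gene that separated the genotypes was higher in CF, in both regions, whereas the days before held genes in either direction.

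NAPSA had the largest estimate. At day 120 in distal lung the CF libraries were at 50.6 and 46.2 CPM and the WT libraries at 9.0 and 4.6 CPM. The CF level exceeded the WT level by 2.85 ± 0.56 on the log2 scale (adjusted p = 0.0107, edgeR). SFTPA1 was at 1190 and 1260 CPM in CF and at 225 and 187 CPM in WT, a log2 difference of 2.59 ± 0.62 (adjusted p = 0.029). For both genes the replicates were closer to each other than to the other genotype.

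ABCA3, SFTPB and SFTPD showed the same order in distal lung at day 120. ABCA3 was at 56.4 and 55.8 CPM in CF and 12.2 and 17.1 CPM in WT (log2 difference 1.95 ± 0.43, adjusted p = 0.0185, edgeR). SFTPB was at 1680 CPM in both CF libraries and at 529 and 572 CPM in WT (1.62 ± 0.37, adjusted p = 0.0237). SFTPD was at 292 and 381 CPM in CF and at 95.6 and 151 CPM in WT (1.46 ± 0.39, adjusted p = 0.0477). All 3 were without overlap between genotypes. None reached an adjusted p of 0.001, a limit that 0.0647% of all genes passed as higher, while 5 of 9 passed the limit of 0.05, which 3.18% of all genes did. SFTPC (2180 and 4590 against 1660 and 2170 CPM), LAMP3 (395 and 390 against 248 and 324) and SLC34A2 (1750 and 1190 against 851 and 1140) were higher in both CF libraries by estimates of 0.83, 0.47 and 0.58 that missed both limits (adjusted p 0.51, 0.247 and 0.365), and LPCAT1 overlapped.

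These 5 differences needed both WT distal day 120 libraries. With any 1 library of the 20 left out the log2 estimates stayed between 1.15 and 3.39, but the largest adjusted p, reached without a WT distal day 120 library, was 0.126 for NAPSA, 0.2 for SFTPA1, 0.191 for ABCA3, 0.183 for SFTPB and 0.329 for SFTPD. SFTPA1, SFTPB, ABCA3 and SFTPD also missed the limit of 0.05 without CF distal day 120 replicate 1, SFTPA1 without either WT distal day 100 library, and SFTPD without any 1 of 12 libraries. In proximal lung at day 120 ABCA3 was at 71.5 and 58.1 CPM in CF against 20.8 and 19.5 CPM in WT (1.69 ± 0.32, adjusted p = 0.0306, edgeR, where 1.1% of all genes passed as higher), and it missed the limit without any 1 of the WT day 120 or CF day 65 proximal libraries (adjusted p up to 0.288). NAPSA there was at 79.4 and 72.2 against 25.1 and 12.8 CPM, without overlap (2.0 ± 0.52, adjusted p = 0.0741). SFTPA1 was there at 1590 and 1200 against 557 and 460 CPM, and SFTPB at 1780 and 1950 against 1050 and 859 CPM. SFTPD was at 330 and 643 against 151 and 213 CPM. These genes were also without overlap and missed the limit of 0.05.

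Related genes were counted as lists in the same libraries. In distal lung at day 120, of 19 regulators of surfactant genes, 21 other type 2 genes, 8 protein handling genes and 15 lipid synthesis genes, none passed the limit of 0.05 as higher and 1 lipid gene passed as lower. Of all genes, 3.18% and 1.04% did. The list medians were −0.08, 0.2, 0.18 and 0.23 (log2) against 0.04 over all genes. The summed levels of the other type 2 genes (2760 and 2770 CPM in CF against 2420 and 2510 in WT) and of the protein handling genes (676 and 614 against 564 and 537) were higher in both CF libraries than in both WT libraries. The 11 general epithelial markers summed to 1000 and 925 CPM in CF and 966 and 1090 CPM in WT distal lung, and the 10 type 1 markers to 3310 and 3240 against 3500 and 2550 CPM. Airway secretory markers summed to 231 and 224 CPM in CF and 99.2 and 338 CPM in WT distal lung, within the WT range. Lung macrophage markers were higher in both CF libraries (40.6 and 45.9 against 28.3 and 26.9 CPM). Fibroblast markers (13200 and 13300 against 8830 and 9570 CPM) and endothelial markers (2180 in both against 1910 and 1590 CPM) were also higher in both CF distal libraries, and red cell markers were lower (28.2 and 37.2 against 111 and 71.9 CPM). The part of these cells in the differences was not tested. In the proximal library that stood apart, SFTPC was at 16100 CPM against 2790 CPM in its partner and LPCAT1 at 3.59 against 66.1 CPM. The proximal LPCAT1 difference was 0.13 ± 0.75 (adjusted p = 0.954) with all libraries and −3.15 without CF proximal day 120 replicate 1. With both day 120 libraries of that CF animal left out, the difference was 1.82 (adjusted p = 0.0328) for ABCA3 in proximal lung, and 2.9 (0.0147) for NAPSA, 2.52 (0.036) for SFTPA1, 1.93 (0.0271) for ABCA3, 1.6 (0.0328) for SFTPB and 1.23 (0.108) for SFTPD in distal lung. That leaves 1 CF library at day 120 in each region, which has no replicate of its own and is assumed to vary like the other groups.

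**Figure D4:**
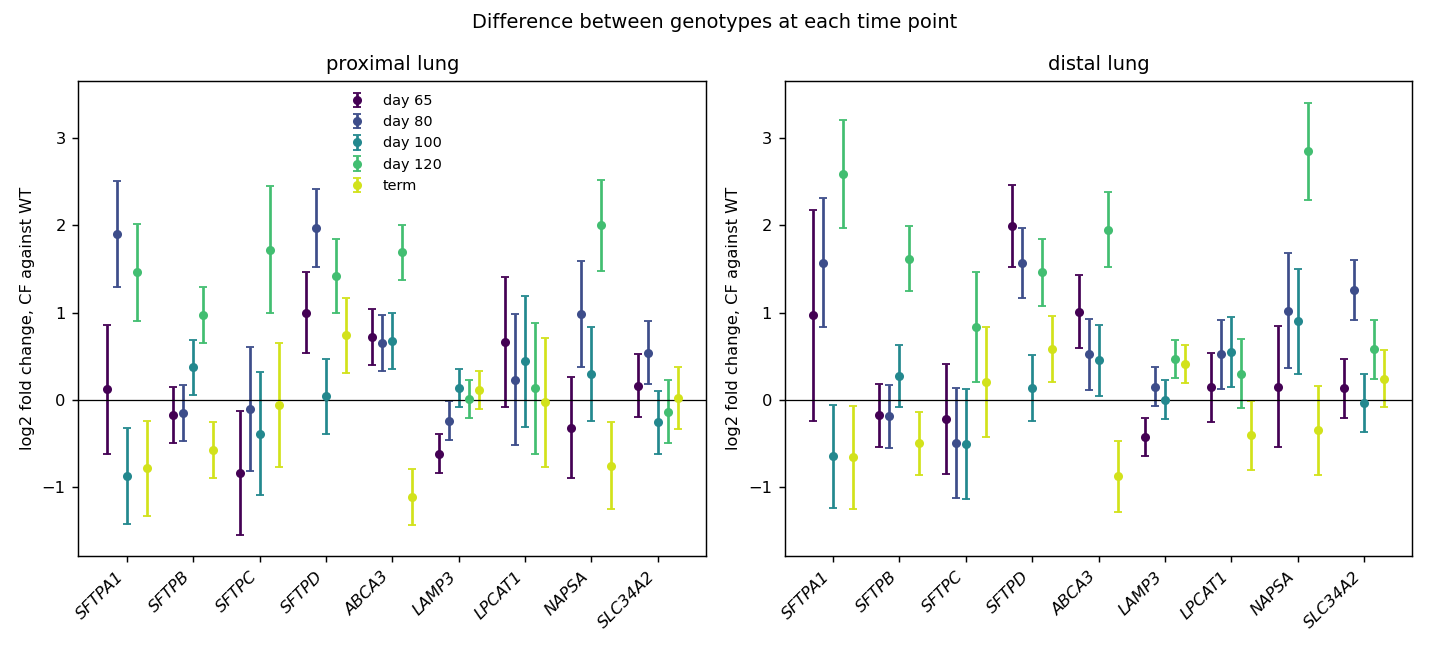
Fitted log2 fold change, CF against WT (points, with bars of 1 SE), for each gene at each time point in proximal and distal lung. Day 120 is the highest point for SFTPA1, SFTPB, ABCA3 and NAPSA in distal lung (1.62 to 2.85), and the term points of those genes lie below 0.

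Before day 120 the clearest difference was in SFTPD. In distal lung at day 65 it was at 2.86 and 3.61 CPM in CF and 1.19 and 0.439 CPM in WT (log2 1.99 ± 0.47, adjusted p = 0.0241, edgeR), and at day 80 at 9.3 and 19.8 against 5.97 and 3.8 CPM (1.57 ± 0.4, adjusted p = 0.035), while at day 100 it differed by 0.13 ± 0.38 (adjusted p = 0.897). SLC34A2 was also higher in CF distal lung at day 80, with 371 and 558 against 192 and 193 CPM (1.26 ± 0.34, adjusted p = 0.0424). The limit of 0.05 was passed upwards by 4.23% of all genes at day 65 and 3.97% at day 80. CF and WT libraries did not overlap in any of these 3 comparisons. Each of these 3 differences missed the limit when a library of its own day was left out (adjusted p up to 0.171, 0.308 and 0.253), and both day 80 differences also did without any 1 of the distal day 100 libraries. In proximal lung no gene of the 9 passed before day 120. Of all genes, 0.113%, 0.0737% and 0.295% of all genes passed as higher at days 65, 80 and 100 and 0.0541%, 0.0147% and 0.0885% as lower.

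Averaged over days 65 to 120, SFTPD was higher in CF distal lung by 1.29 ± 0.21 on the log2 scale (adjusted p = 3.19e-04, edgeR), the only call of the 18, where 5.21% of all genes were called as higher. With the WT day 100 libraries, which carry 1 animal label, summed to 1, the estimate was 1.28 and the call was lost (adjusted p = 0.00155). In proximal lung its difference was 1.11 ± 0.22 (adjusted p = 0.00359) and that of ABCA3 0.93 ± 0.16 (adjusted p = 0.00141), and in distal lung ABCA3 was at 0.98 ± 0.21 (adjusted p = 0.00243), where 2.13% of all genes were called in proximal lung. With any 1 library left out the distal SFTPD difference had an adjusted p of 0.00159 or less, above 0.001 without any 1 of the distal day 100 libraries of either genotype, WT distal day 120 replicate 1, or WT distal replicate 2 of day 65 or day 80. The ABCA3 differences stayed at or under 0.00609 in proximal and 0.00799 in distal lung, and that of NAPSA in distal lung (1.23 ± 0.31, adjusted p = 0.00732) at or under 0.0217. SFTPA1 and SLC34A2 in distal lung also passed the limit of 0.05 in the fit of all libraries (1.12 ± 0.4 and 0.48 ± 0.17, adjusted p 0.0459 and 0.0399), the estimate for SLC34A2 being under the fold limit, and SFTPA1 missed it without any 1 of 15 libraries (adjusted p up to 0.123). Of all genes, 10.9% in proximal and 11.5% in distal lung passed that limit as higher. SFTPC differed by 0.09 ± 0.35 in proximal and −0.1 ± 0.31 in distal lung, and LAMP3 by −0.18 ± 0.11 and 0.05 ± 0.11.

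At term the estimates fell on either side of 0, with 4 of 9 above it in distal and 3 of 9 in proximal lung. In distal lung CF stood below WT at term for ABCA3 (77.0 and 33.3 against 66.8 and 140 CPM, log2 −0.88 ± 0.41, adjusted p = 0.161, edgeR) and SFTPA1 (3930 and 1040 against 3580 and 4460 CPM, −0.66 ± 0.59, adjusted p = 0.48), and the libraries overlapped for both. In proximal lung ABCA3 at term was at 70.7 and 35.8 CPM in CF and at 79.5 and 152 CPM in WT, without overlap (−1.12 ± 0.32, adjusted p = 0.0545). SFTPA1 (4410 and 1820 against 4870 and 5900) and SFTPB (3430 and 2510 against 3760 and 5130 CPM) were also lower there, without overlap. SFTPD stayed higher in CF without overlap, at 836 and 677 against 369 and 662 CPM in distal lung (0.58 ± 0.38, adjusted p = 0.334) and at 803 and 939 against 405 and 637 CPM in proximal lung (0.74 ± 0.43, adjusted p = 0.368), and LAMP3 did so in distal lung (908 and 604 against 557 and 598 CPM, 0.41 ± 0.22, adjusted p = 0.217). No gene of the 9 passed at term in either region. Over the 10 comparisons of genotypes at a single day, 0 of 90 tests were called by edgeR, 23 had an unadjusted p under 0.05, and DESeq2 called 5. Over all genes in the same 10 comparisons 18.9% had an unadjusted p under 0.05, and DESeq2 called 2.89%. Of all genes, edgeR called as higher 0.0% in proximal lung on each day before term and 0.0934% at term, and in distal lung 0.0697%, 0.124%, 0.115%, 0.0647% and 0.568% from day 65 to term.

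The change from day 120 to term was therefore compared between genotypes directly. Expressed against the same course's term mean, day 120 distal lung held 14.2% of the ABCA3 level in WT and 102% in CF, 4.02% and 37% for NAPSA, 5.12% and 49.3% for SFTPA1, and 14.8% and 65.4% for SFTPB. The CF shares rested on 2 term libraries far apart. Against replicate 1 or replicate 2 alone they were 72.8% or 168% for ABCA3, 22.3% or 110% for NAPSA, 31.2% or 117% for SFTPA1 and 48.6% or 99.8% for SFTPB. The WT shares ran from 3.04% to 22%. The gain to term was smaller in CF than in WT by 2.83 ± 0.59 (ABCA3), 3.2 ± 0.75 (NAPSA), 3.25 ± 0.85 (SFTPA1) and 2.13 ± 0.52 (SFTPB) on the log2 scale (adjusted p 0.0101, 0.0179, 0.0291 and 0.0217, edgeR interaction). In proximal lung only ABCA3 passed the limit of 0.05, with a gain smaller by 2.8 ± 0.46 (adjusted p = 0.00816). At this limit 5.1% of all genes in distal and 1.19% in proximal lung had a smaller gain in CF, and 0 of the 36 tests of a change were called by edgeR at 0.001 (17 had an unadjusted p under 0.05, against 12.2% over all genes, and DESeq2 called 4, against 1.59%). Of all genes, edgeR called 0.134% as gaining less in CF distal lung and 0.0442% in CF proximal lung. The distal ABCA3 difference kept its side of the limit with any 1 library left out (adjusted p up to 0.0489), whereas SFTPA1, SFTPB and NAPSA reached 0.105, 0.0715 and 0.0844 without a WT distal day 120 library, and proximal ABCA3 0.0663 without WT proximal day 120 replicate 2. SFTPA1 and SFTPB also missed the limit without CF distal term replicate 2, and SFTPA1 and NAPSA without WT distal term replicate 2. Markers of other cells moved with this contrast. From day 120 to term in distal lung the summed general epithelial markers went from 966 and 1090 to 2170 and 2270 CPM in WT and from 1000 and 925 to 1320 and 1660 CPM in CF. Type 1 markers went from 3500 and 2550 to 6840 and 6550 CPM in WT and from 3310 and 3240 to 4330 and 2630 CPM in CF, and macrophage markers from 28.3 and 26.9 to 319 and 789 CPM in WT and from 40.6 and 45.9 to 65.3 and 74.4 CPM in CF. Cell cycle genes stood at 268 and 228, then 299 and 131 CPM in WT. In CF they stood at 358 and 234, then 30.8 and 51.8 CPM. Red cell markers fell from 111 and 71.9 to 1.45 and 0.719 CPM in WT. In CF those fell from 28.2 and 37.2 to 4.5 and 7.85 CPM. The summed other type 2 genes gained more in CF, from 2420 and 2510 to 4200 and 4710 CPM in WT and from 2760 and 2770 to 6660 and 5500 CPM in CF. As single genes, at the limit of 0.05, 0 of 10 type 1 markers and 0 of 21 other type 2 genes differed in their change, 1 of 11 general epithelial markers did in each direction, and 3 of 7 macrophage markers gained less in CF. The part of these cells in the smaller CF gain was not tested. Over the earlier interval, from day 100 to day 120, the CF change exceeded the WT change by 3.24 ± 0.85 for SFTPA1 and 1.96 ± 0.8 for NAPSA in distal lung (adjusted p 0.743 and 1), and 0.0% of all genes passed.

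The CF term animals differed from each other, more so in distal lung. All 9 genes were higher in CF replicate 1 than in replicate 2 in distal lung, by a median of 1.17 on the log2 scale, and 7 of 9 were in proximal lung. In distal lung SFTPC was at 22800 CPM in replicate 1 and 3230 CPM in replicate 2, NAPSA at 217 and 44.2 CPM, and SFTPA1 at 3930 and 1040 CPM. The median absolute difference over all genes between those libraries was 0.49. In proximal lung the median absolute difference was 0.46 for the 9 genes, against 0.51 over all genes. The other type 2 genes summed to 6660 CPM in replicate 1 and 5500 CPM in replicate 2 in distal lung and to 6100 and 6580 CPM in proximal lung. Fibroblast markers were higher in replicate 1 in both regions (8090 and 3270 CPM in distal, 8870 and 4300 CPM in proximal lung), as were type 1 markers (4330 and 2630, and 3360 and 2840 CPM). General epithelial markers were lower in replicate 1 in both regions (1320 and 1660 CPM in distal, 982 and 1840 CPM in proximal lung), as were the regulators of surfactant genes (1170 and 1680, and 985 and 1680 CPM). In distal lung, airway secretory markers summed to 1390 CPM in replicate 1 and 3810 CPM in replicate 2 and basal markers to 10.4 and 315 CPM. The part of these cells in the difference was not tested.

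Finally, distal and proximal lung were compared. No difference was called for any of the 9 at any time point in either genotype, and 0.0% of all genes were called, as higher or as lower in distal lung, in each of the 12 comparisons. By edgeR 0 of 90 tests at a single day and 0 of 18 over all days were called, with 4 and 5 at an unadjusted p under 0.05 (1.97% and 2.09% over all genes), and DESeq2 also called 0 (0.0121% and 0.012% over all genes). Within a pair of libraries of the same genotype, day and replicate, however, SFTPB was lower in distal than in proximal lung in 19 of 20 pairs (median log2 −0.32, range −0.98 to 0.01), NAPSA in 18 of 20 (median −0.36), SFTPA1 in 17 of 20 (median −0.62) and SFTPD in 16 of 20 (median −0.43). At least 16 of 20 was met by 151 of 20779 genes (0.727%), at least 17 by 42 (0.202%), at least 18 by 13 (0.0626%) and at least 19 by 4 (0.0193%). The 2 regions of a pair came from 1 animal, and the WT day 100 pairs share an animal label.

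In WT lung over all days the distal against proximal difference was −0.69 ± 0.29 for NAPSA, −0.89 ± 0.36 for SFTPA1 and −0.41 ± 0.15 for SFTPB on the log2 scale (adjusted p = 1 for each, edgeR). With the animal as a block, NAPSA passed the limit of 0.05 (−0.68, adjusted p = 0.0157), as 0.00963% of all genes did as lower, and so did its difference at WT day 120 (−1.48, adjusted p = 0.00276, again with 0.00963% of all genes), where the distal libraries were at 9.0 and 4.6 CPM and the proximal ones at 25.1 and 12.8 CPM. SLC34A2 and SFTPB were lower in distal lung in 10 of 10 WT pairs, which 55 genes were (0.265%), and in 4 and 9 of 10 CF pairs. Whether that differed between genotypes over all days was not tested. The difference between genotypes in the regional difference was tested at day 120 and at term, and 0 of 18 tests were called by edgeR or DESeq2 (0 at an unadjusted p under 0.05), where edgeR called 0.0% and DESeq2 0.00481% of all genes and 2.21% had an unadjusted p under 0.05. LAMP3 and LPCAT1 showed no common direction over the 20 pairs (distal lower in 11 and 12), with 2 SE intervals over all days in WT of −0.35 to 0.01 and −0.62 to 0.54.

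**Figure D5:**
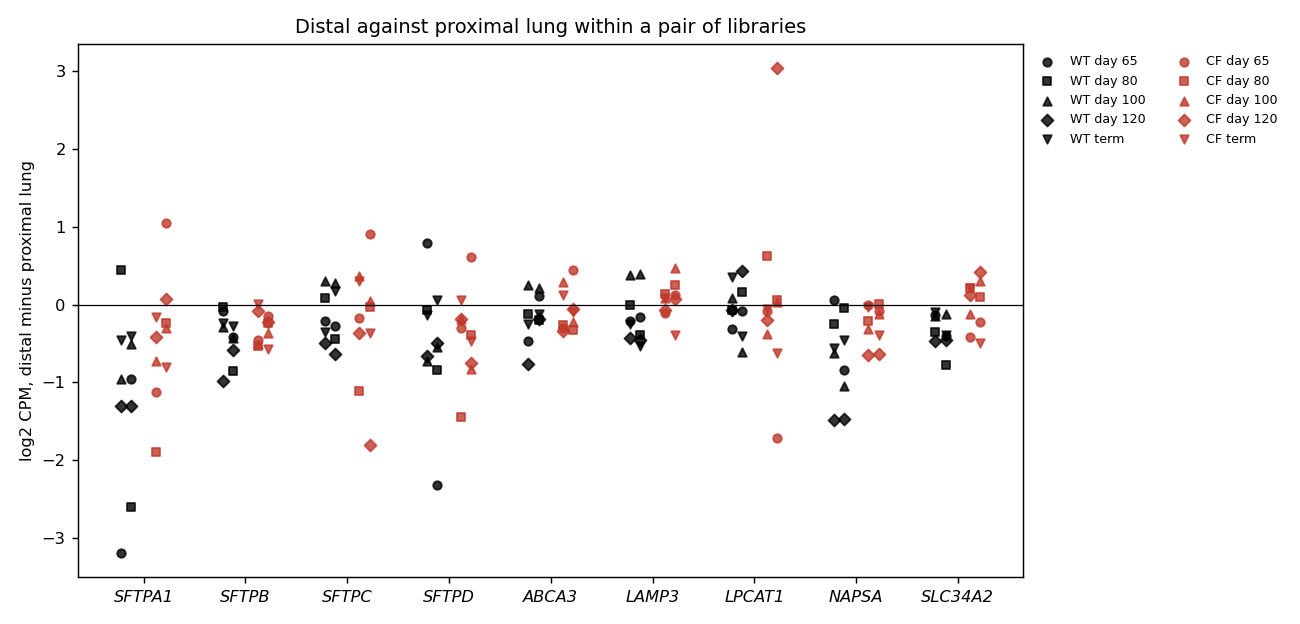
Difference in log2 CPM, distal minus proximal lung, within each pair of libraries of the same genotype, day and replicate (20 points per gene, WT black, CF red). Nearly all SFTPB and NAPSA points lie below 0 (19 and 18 of 20), whereas ABCA3, LAMP3 and LPCAT1 scatter around it, and the LPCAT1 point at 3.04 belongs to CF day 120 replicate 2.

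The 9 genes moved together to different degrees. Over the 40 libraries, which share developmental time, Pearson's r between log2 CPM of 2 members ranged from 0.246 to 0.968 (median 0.794, 36 pairs). After removing the mean of each condition, so that only replicate differences remained, r ranged from −0.585 to 0.811 (median 0.41). Outside the 9, the genes most like their mean course among 13677 ranked were CTSH (r = 0.954, n = 40 libraries), ERRFI1 (0.953), a feedback inhibitor of epidermal growth factor signalling, TMEM229B (0.948), LOC105608435 (0.938; FUT2 in RefSeq), LOC101113398 (0.937) and AQP5 (0.934), a water channel. Without the term libraries the same coefficients were 0.89 to 0.936.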

How the data were processed

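RNA was extracted from snap-frozen proximal and distal lung and sequenced as oligo dT-primed, paired-end libraries. Per the labels, the authors aligned the reads with STAR 2.6 to Oar_v4.0 and counted them per gene with featureCounts 1.6.3; the study's methods name a later STAR release. The deposited values were raw counts per gene, used as deposited. Among counts of 1 to 20, 69.2% to 85.8% were even, so a fragment may often have been counted once per mate. Tables of the authors' fold changes were not used, and no column of another series was present.

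Counts were normalised by TMM in edgeR 4.0.16 (R 4.3.3), filtered by filterByExpr (minimum count 10, minimum total 15) and tested with glmQLFit and glmQLFTest. Time courses were fitted on 10 libraries each, genotypes on 20 libraries per region, and regions on all 40. P-values were adjusted by Benjamini-Hochberg over all genes tested. Calls took an adjusted p limit of 0.001, with 0.05 as a looser one, and a log2 fold limit of 0.58. CPM used TMM over the 40 libraries, and log2 CPM a prior count of 0.5. The scripts were tested on simulated data. The library totals in the report bound precision, and deeper CF and term libraries resolve low genes better than WT libraries before term. DESeq2 1.42.0, RLE factors, thinned counts and other settings were tried as alternatives.

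The 9 genes, the lists and the tests were chosen with earlier results of these data known. All 9 genes were to be named in each comparison, but some comparisons here give values for only part of them. Of each list, counted whole, the genes with the largest called changes in WT distal lung were named. Replicate numbers of different conditions do not pair animals per the labels, apart from 1 animal label that WT day 65 replicate 2 and CF day 100 replicate 2 share. Proximal and distal libraries with the same number came from 1 animal per the labels, and their deviations from the condition means correlated at r = −0.0466 to 0.474 (median 0.178, 10 condition pairs). The WT day 100 replicates share an animal label and may be 1 animal. Their counts differed by more than Poisson noise, which cannot show separate animals, and the distal pair had the lowest chi-square per gene of the 20 replicate pairs (6.98, the others 19.5 or more), whereas the proximal pair, at 40.7, lay among the other WT pairs before term (19.5 to 60.9). They were kept as 2 libraries as the labels number them, and also tried summed. P-values measure the spread between these libraries.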

Additional observations from a re-analysis of the deposited data

Results flagged for a closer look

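In 5 cases the change from day 120 to term differed between genotypes by a test of the difference itself (edgeR interaction, adjusted p of 0.05 or less). The CF minus WT difference in log2 change was −2.8 for ABCA3 in proximal lung (adjusted p = 0.00816), −2.83 for ABCA3 in distal lung (adjusted p = 0.0101), −3.2 for NAPSA in distal lung (adjusted p = 0.0179), −2.13 for SFTPB in distal lung (adjusted p = 0.0217) and −3.25 for SFTPA1 in distal lung (adjusted p = 0.0291). In WT lung these genes gained 2.52 to 4.64 on the log2 scale over that interval, and in CF lung −0.32 to 1.43. At term in distal lung the summed type 1 markers (6840 and 6550 CPM in WT, 4330 and 2630 in CF) and general epithelial markers (2170 and 2270 in WT, 1320 and 1660 in CF) were also lower in CF, from overlapping levels at day 120, whereas the other type 2 genes were higher in CF (6660 and 5500 CPM against 4200 and 4710). Cell cycle genes summed to 299 and 131 CPM in WT and 30.8 and 51.8 CPM in CF distal lung at term. The WT term lambs had been born naturally. Whether any of these moved the 4 genes was not tested.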

How the results depend on the processing

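The number of calls moved with the limit, the tool and the libraries fitted. Of 144 tests of neighbouring time points, 5 were called, against 34 at a limit of 0.05, 16 in 1 fit over all 40 libraries, 54 by DESeq2, 13 with no filter on low counts and 1 with the WT day 100 libraries summed. Of 36 tests of term with day 65, 21 were called, against 34 at 0.05 and 32 by DESeq2. For CF against WT at a single day the count of 0 became 9 at 0.05 and 5 by DESeq2, and for differences in change 5 and 4. Averaged over days 65 to 120, the 1 call became 6 at 0.05, 5 by DESeq2, 0 with the WT day 100 libraries summed and 2 without both CF day 120 replicate 2 libraries (chosen after seeing the data). With 1 library left out these counts ranged from 1 to 8, 19 to 24, 0 to 1, 0 to 2 and 0 to 3, in the order of neighbouring time points, term with day 65, genotype at 1 day, difference in change, and days 65 to 120. The count over days 65 to 120 rose to 2 or 3 without any 1 of the 4 CF term libraries, either CF proximal day 120 library, WT proximal day 65 replicate 2 or WT proximal term replicate 1. The count by genotype at 1 day rose to 1 without either CF distal term library or CF proximal day 120 replicate 1, and that of the difference in change rose without CF distal term replicate 1 or CF proximal day 120 replicate 1. For distal against proximal lung the range was 0 to 1 at 1 day, the 1 being LPCAT1 without CF day 120 replicate 1, and 0 to 0 otherwise. Without CF proximal day 120 replicate 1, LPCAT1 reversed: CF against WT at day 120 became −3.15 (adjusted p = 1.96e-04) and the difference in change from day 120 to term 3.12 (adjusted p = 9.53e-04), the lone remaining CF library, at 3.59 CPM, being assumed to vary like the others. Other causes were not tested.

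With the replicate number as a block the counts were 4, 19, 0, 1 and 0 over time, from day 65 to term, by genotype, over days 65 to 120 and in change, and 0 in each comparison of regions, where the number marks the animal. Replicate numbers of different conditions in the same region correlated at −0.328 to 0.484 (median 0.00868), so they share only a number there. RLE factors, thinning to equal depth and leaving the 9 genes out of the scaling kept all 27 called values called. None of the 27 was a difference of genotypes at 1 day or in change, where thinning left the counts at 0. With 2 libraries per condition and WT libraries before term of 24670355 to 43700012 counts, differences in genes near 1 CPM had wide errors.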
